A study of Homo sapiens with 2 samples.

Results

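Iron-sulfur clusters are small inorganic cofactors that are built in mitochondria and in the cytosol and then inserted into enzymes of respiration, metabolism, translation and DNA repair. Genes of this system were examined in cells labelled HL60, a human promyelocytic leukaemia line, 1 sample given 3 µg/ml eltrombopag over 36 h and 1 left untreated. Eltrombopag, a small molecule, activates the receptor of thrombopoietin and also chelates iron, so the comparison bears on whether transcripts of an iron-using pathway differ after exposure. The members were taken from a list of 33 genes, 18 assembly factors and 15 client proteins that carry a cluster, through every probe set that the platform annotation assigns to 1 of these genes alone. Of the 33 genes, 31 were found, with 62 probe sets, among 19775 genes on the array; FDXR and NUBP2 were not analysed here. Both samples grew in RPMI with serum, the untreated label names no vehicle and no culture time, and each group holds 1 array, so every difference described here is a difference between 2 arrays with no replicate check and no test. Culture time or vehicle cannot be told apart from the drug.

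The labels also call the cells haematopoietic stem cells. The stem cell markers did not reach the detection floor, defined below, in any of 5 genes (CD34, PROM1, KIT, THY1 and FLT3), while 8 of 9 promyelocyte genes, MPO and MYB among them, cleared it in both samples and ELANE lay below it in both. Plasma cell genes were also present: 10 of 11, all but CD27, lay above the floor in both samples. The signals of all 11, 1 probe set a gene, summed to 10791 in the eltrombopag sample and 17699 in the untreated sample. JCHAIN alone had 4866 with eltrombopag and 7972 untreated. Of the 10, 7 were at least 1.5-fold lower with eltrombopag, among them IRF4 and TNFRSF17. So were 2 of the 8 promyelocyte genes, CTSG and RNASE2, and 11.8% of all genes above the floor in at least 1 sample. Of the B-cell, T-cell, erythroid and fibroblast or epithelial lists, 0 of 4, 0 of 4, 0 of 2 and 2 of 5 genes cleared the floor in both. Some reached it in 1 sample only: PAX5, of the B-cell list, had 53.5 with eltrombopag and 132 untreated. CD3E, of the T-cell list, had 59.2 with eltrombopag and 15.3 untreated, and HBB, of the erythroid list, 52.5 with eltrombopag and 84.2 untreated. The plasma cell genes and ELANE go against the HL60 label, so the identity of the cells is uncertain, and HL60 is used here only as the name on the label. The part of the plasma cell genes in the differences described here was not tested.

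In the mitochondrion, the desulfurase NFS1 with its partner LYRM4 supplies sulfur to the scaffold ISCU, ferredoxin supplies electrons, and the chaperone pair HSPA9 and HSCB helps pass the nascent cluster to the relay protein GLRX5. Late-acting factors then make the larger cubane-type cluster and hand it to recipients such as the lipoyl synthase LIAS. In the cytosol a separate chain ends in a targeting complex with CIAO1 and MMS19, which loads clusters onto DNA polymerases, helicases and other enzymes. Several clients hold their cluster as a structural part, and for some its exact duty is still debated.

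Each value is a MAS5 signal, the brightness of a probe set on a linear scale. Signals below 56.9, the 60th percentile of both arrays pooled, were raised to that floor before the ratio was taken, and a gene is represented by its brightest probe set. All 31 members lay above the floor in both samples, so no member's ratio is a bound. Ratios are log2 of eltrombopag over untreated. Over the 9597 genes that cleared the floor in each sample, the median ratio was -0.12 and the quartiles were -0.37 and 0.11, and this common offset is part of every ratio below. It depends on how the arrays are scaled. Without replicates, the error could be gauged only from how far the 2 brightest probe sets of a gene disagreed. The SD of their difference in log2 ratio, divided by the square root of 2, was 0.26 over 4374 genes. This value, called the probe set SD below, is not an error between cultures. In bulk RNA, fewer cells of a type and less RNA per cell cannot be told apart.

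Most of the iron-sulfur system differed little between the samples. Of the 31 members, 4 were at least 1.5-fold lower with eltrombopag: the ferredoxin FDX1, the helicase BRIP1, the late-acting factor BOLA3 and the pyrimidine-degrading enzyme DPYD. Members past this threshold made up 12.9%, and 11.8% of all 10314 measured genes (above the floor in at least 1 sample) were, so the share of members is near the background. At least 1.5-fold higher were 0 members, against 3.49% of measured genes. At least 2-fold lower or higher were 0 members, against 2.27% and 0.65% of measured genes. Ratios below 0 were found in 23 of 31 members, 74.2%, against 63.4% of measured genes. The members' median ratio was -0.22, or -0.10 relative to the median gene, and 18 of 31 lay between the quartiles of the 9597 genes. Distance from the median gene reached 2 of the probe set SDs in 3 members, FDX1, IBA57 and BRIP1, and in 17.7% of measured genes. Of the 13 members with more than 1 probe set above the floor, 7 had probe sets with ratios of both signs.

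**Figure D1:**
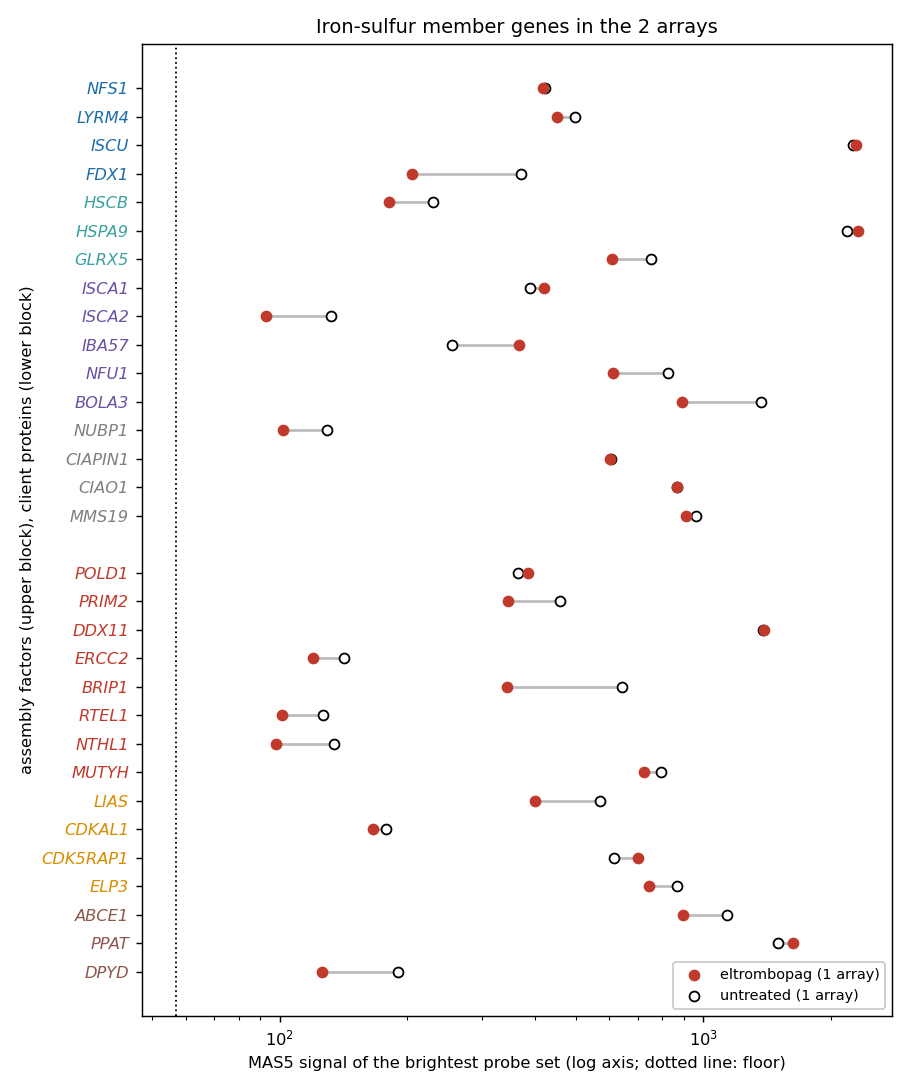
MAS5 signal (log axis) of the brightest probe set of each of 31 member genes in the eltrombopag array (filled) and the untreated array (open), with the floor as a dotted line; the upper block holds assembly factors, the lower block client proteins, and label colours mark roles in the order in which the text describes them. The cytosolic genes CIAO1 and CIAPIN1 nearly coincide in both arrays, and the widest gaps are those of BRIP1 and FDX1, both lower with eltrombopag.

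FDX1 and BRIP1 are the members that stayed at least 1.5-fold lower in each alternative in which they had a value, and BOLA3 and IBA57 were the lowest and the highest of the late-acting factors. The 250 bases before their RefSeq start sites (GRCh38.p14) are shown, 5′ to 3′ on the gene's strand, because these genes mark the ends of the members' range. Capitals mark the letters CCAAT, the core of the NF-Y motif, and CCGGAAG, a core of ETS motifs, on either strand, so that ATTGG and CTTCCGG count as matches; the words do not overlap.
FDX1 (chr11:110429698-110429947, plus strand): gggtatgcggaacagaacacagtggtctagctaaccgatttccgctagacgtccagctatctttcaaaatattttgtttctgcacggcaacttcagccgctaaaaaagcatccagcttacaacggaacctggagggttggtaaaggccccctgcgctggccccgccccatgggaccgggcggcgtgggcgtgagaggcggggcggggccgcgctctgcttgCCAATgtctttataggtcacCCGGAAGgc
BRIP1 (chr17:61863529-61863778, minus strand): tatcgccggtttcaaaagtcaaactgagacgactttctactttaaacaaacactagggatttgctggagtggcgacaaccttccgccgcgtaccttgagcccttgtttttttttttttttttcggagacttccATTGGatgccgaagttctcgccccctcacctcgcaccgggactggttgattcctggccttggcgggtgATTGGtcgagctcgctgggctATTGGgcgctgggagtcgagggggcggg
BOLA3 (chr2:74147913-74148162, minus strand): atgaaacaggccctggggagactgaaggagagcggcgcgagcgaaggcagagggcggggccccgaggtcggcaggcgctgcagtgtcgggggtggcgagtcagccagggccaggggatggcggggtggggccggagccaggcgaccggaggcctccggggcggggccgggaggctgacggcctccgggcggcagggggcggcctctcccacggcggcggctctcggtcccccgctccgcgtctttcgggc
IBA57 (chr1:228165554-228165803, plus strand): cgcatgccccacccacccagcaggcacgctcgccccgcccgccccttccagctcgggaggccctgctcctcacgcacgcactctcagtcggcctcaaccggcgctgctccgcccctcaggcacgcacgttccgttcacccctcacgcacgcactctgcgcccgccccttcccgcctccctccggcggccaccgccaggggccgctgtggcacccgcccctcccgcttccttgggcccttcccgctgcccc
FDX1 holds 1 CCAAT, beginning 29 bases before the start, and 1 CCGGAAG, beginning 9 bases before it. BRIP1 holds 3 matches to CCAAT, all on the opposite strand, beginning 117, 49 and 28 bases before the start. BOLA3 and IBA57 hold neither word in this window, and their windows have a GC content of 77.6% and 76.0%, against 58.4% in FDX1 and 54.0% in BRIP1. CCAAT was found in 10 of the 31 promoters held for the listed genes (all but NUBP2 and ELP3) and in 33.0% of 27305 promoters of the same length, so the members hold it about as often as promoters in general. CCGGAAG was found in 5 of the 31, and in 8.82% of all promoters. A match is a description of letters, not of a bound factor.

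Among the core scaffold proteins, sulfur donor and scaffold had nearly equal signals in both samples. NFS1, the cysteine desulfurase, had a signal of 419 with eltrombopag and 422 untreated, a ratio of -0.01. LYRM4, also known as ISD11, which stabilises NFS1, had 450.4 with eltrombopag and 498 untreated, a ratio of -0.14, and 0.14 in its other probe set. ISCU, the scaffold on which the cluster forms, had 2293 with eltrombopag and 2251 untreated, a ratio of 0.03. These 3 genes lay within 0.15 of the median gene on the log2 scale.

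FDX1, a mitochondrial ferredoxin that donates electrons to steroid-making cytochromes and takes part in protein lipoylation, stood apart from them. Its brightest probe set had 205 with eltrombopag and 371 untreated, 1.81-fold lower, and its next had 88.6 with eltrombopag and 163 untreated. The ratios of these probe sets, -0.85 and -0.88, differed by 0.03, and both passed 1.5-fold. The remaining FDX1 probe set was below the floor in both samples, at 33.3 with eltrombopag and 53.3 untreated. Of all measured genes, 4.25% had a ratio at or below that of FDX1. FDX2, a related ferredoxin that serves cluster synthesis and is not a member, was also lower, with 85.6 in the eltrombopag and 153 in the untreated sample and a ratio of -0.84 in its only probe set.

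The transfer chaperones were mixed. HSPA9, the mitochondrial Hsp70 mortalin, had 2320.3 with eltrombopag and 2182 untreated, a ratio of 0.09, and the other probe sets above the floor gave -0.01 and -0.14. HSCB, the J-protein that brings HSPA9 to ISCU, had 182 with eltrombopag and 229.9 untreated, a ratio of -0.34 from a single probe set with the suffix _x_at, which can share sequence with other transcripts. GLRX5, the monothiol glutaredoxin that relays the cluster, had 609 with eltrombopag and 753 untreated, a ratio of -0.30. The ratios of HSCB and GLRX5 lay inside the quartiles of the 9597 genes, as did that of HSPA9.

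The late-acting factors spread most widely of the 4 assembly groups, and their ratios ran in both directions. BOLA3, which with NFU1 delivers clusters to LIAS and to respiratory complexes, had 888 with eltrombopag and 1368 untreated, 1.54-fold lower, with a ratio of -0.62. NFU1 had 611 with eltrombopag and 824 untreated, a ratio of -0.43. ISCA2, of the complex that fuses smaller clusters into the cubane type, had 92.7 with eltrombopag and 132 untreated, a ratio of -0.51. Each of these 3 genes had 1 probe set, and only BOLA3 passed 1.5-fold.

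IBA57, the partner of ISCA1 and ISCA2, went the other way. It had 366 in the eltrombopag and 255 in the untreated sample, 1.44-fold higher with a ratio of 0.52, the highest of the 31 members, and 4.55% of measured genes had a ratio at or above it. The other IBA57 probe sets lay below the floor in both samples, so its ratio rests on 1 probe set. They had 51.9, 24.4 and 14.9 with eltrombopag and, in the same order, 52.1, 24.3 and 5.02 untreated. ISCA1 had no settled direction: its brightest probe set had 422 with eltrombopag and 389.8 untreated, a ratio of 0.11, while the others gave -0.76 and -0.34. The ISCA1 probe sets differed by 0.88 on the log2 scale, the widest spread among the 13 members with more than 1 probe set above the floor.

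The cytosolic chain was close to level. CIAO1, of the targeting complex, had 865 with eltrombopag and 866 untreated, a ratio of -0.003, with -0.04 and -0.34 in its other probe sets. CIAPIN1, an electron carrier of the chain, had 601 with eltrombopag and 605 untreated, a ratio of -0.01, and its dimmer probe sets gave -0.11 and -0.10. MMS19, which binds client polymerases and helicases, had 912 with eltrombopag and 959 untreated, a ratio of -0.07. NUBP1, a scaffold ATPase, had 102 with eltrombopag and 129 untreated, a ratio of -0.34. Relative to the median gene, the median of these 4 genes was 0.08, against 0.04 for the 4 core scaffold genes, -0.19 for the 3 transfer chaperones and -0.31 for the 5 late-acting factors.

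**Figure D2:**
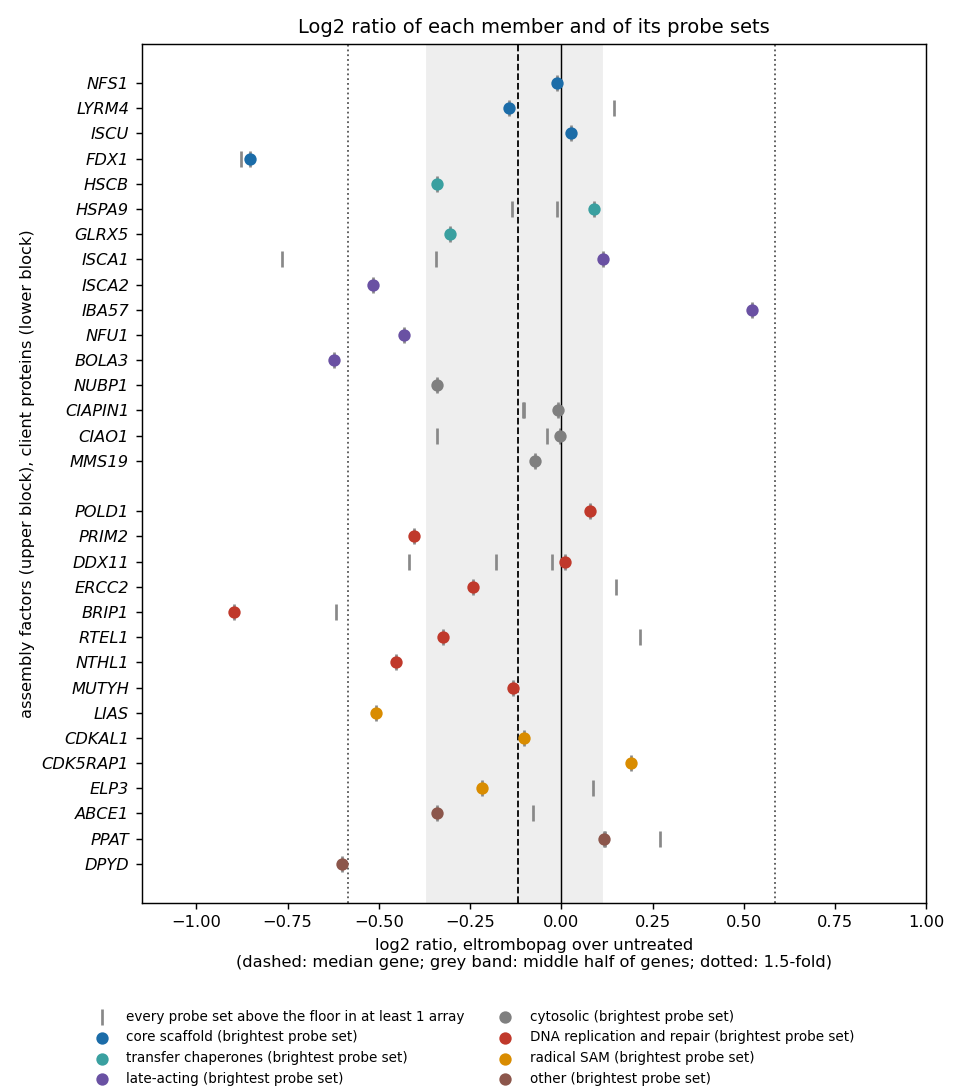
Log2 ratio of eltrombopag over untreated for each member's brightest probe set (coloured by role) and for every probe set above the floor in at least 1 array (grey ticks), with the median gene (dashed), the quartiles of genes above the floor in both arrays (grey band) and the 1.5-fold limits (dotted). FDX1, BRIP1, BOLA3 and DPYD lie beyond the lower limit, IBA57 is the highest at 0.52, and the ISCA1 ticks spread over 0.88.

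Among clients of DNA replication and repair, BRIP1 was the lowest of the 31 members. BRIP1, also called FANCJ, is a helicase of the Fanconi anaemia pathway. It had 344 with eltrombopag and 642 untreated, 1.86-fold lower, a ratio of -0.90. Its second probe set had 22.9 with eltrombopag, below the floor, and 87.3 untreated, so it was at least 1.53-fold lower there, with a ratio of -0.62 against the floor. Of all measured genes, 3.50% had a ratio at or below that of BRIP1.

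The other helicases did not follow it. DDX11, a helicase of sister chromatid cohesion, had 1389 with eltrombopag and 1380 untreated, a ratio of 0.01, with -0.03, -0.18 and -0.42 in its other probe sets. DDX11 has near-identical relatives in the genome, so its signal may be shared and its ratio is uncertain. ERCC2, the XPD helicase of transcription factor TFIIH, had 120.0 with eltrombopag and 142 untreated, a ratio of -0.24, and its second probe set gave 0.15. RTEL1, which unwinds telomere loops, had 101 with eltrombopag and 127 untreated, a ratio of -0.33, and 0.22 in its second probe set, both of the suffix _x_at. Neither ERCC2 nor RTEL1 has a settled direction.

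POLD1 and PRIM2, the polymerase and primase members, had ratios on either side of 0. POLD1, the catalytic subunit of polymerase delta, had 386 with eltrombopag and 366 untreated, a ratio of 0.08. PRIM2, the primase subunit that carries the cluster, had 346 with eltrombopag and 458 untreated, a ratio of -0.40. Partner subunits without a cluster were named after their values were seen. PRIM1 had a ratio of -0.89, below that of PRIM2, and POLD2 one of -0.42, below that of POLD1. The POLD3 probe sets gave -1.07 (the brightest) and 0.75, on either side of POLD1. The 0.75 is a bound from a dim probe set, with 96.0 in the eltrombopag sample and 49.3, below the floor, untreated.

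Of the base excision glycosylases, NTHL1, which removes oxidised pyrimidines, had 97.9 with eltrombopag and 134 untreated, a ratio of -0.45. MUTYH, which removes adenine mispaired with oxidised guanine, had 723 with eltrombopag and 793 untreated, a ratio of -0.13. Both values rest on 1 probe set each, and that of MUTYH was -0.01 relative to the median gene.

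The radical SAM enzymes use their cluster to split S-adenosylmethionine. LIAS, which makes the lipoyl cofactor of the pyruvate and oxoglutarate dehydrogenases, was the lowest of them, with 400.1 in the eltrombopag and 569 in the untreated sample and a ratio of -0.51. ELP3, the catalytic subunit of Elongator, had 744 with eltrombopag and 865 untreated, a ratio of -0.22, with 0.09 in its other probe set. CDKAL1, a tRNA methylthiotransferase, had 166 with eltrombopag and 178 untreated, a ratio of -0.10. CDK5RAP1, which acts on mitochondrial tRNAs, had 700.4 with eltrombopag and 614 untreated, a ratio of 0.19, the highest of the clients. None of these 4 genes passed 1.5-fold in either direction.

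Of the remaining clients, DPYD, which degrades uracil and thymine, had 126 with eltrombopag and 190.4 untreated, 1.52-fold lower with a ratio of -0.60. Its other probe sets lay below the floor in both samples. ABCE1, which splits ribosomes after termination, had 896 with eltrombopag and 1134 untreated, a ratio of -0.34, while a probe set of almost equal brightness gave -0.08. PPAT, which starts purine synthesis, had 1629 with eltrombopag and 1502 untreated, a ratio of 0.12, and its dimmer probe sets gave 0.12 and 0.27. The 0.27 is a bound, since that probe set had 68.6 with eltrombopag and 52.3, below the floor, untreated. All 3 PPAT probe sets were higher with eltrombopag.

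Set side by side, assembly factors and clients covered much the same range. The 16 assembly factors had a median of -0.11, or 0.01 relative to the median gene, and ran from -0.85 to 0.52. The 15 clients had a median of -0.24, or -0.12 relative to the median gene, and ran from -0.90 to 0.19. Each list had 2 members at least 1.5-fold lower, 12.5% of the assembly factors and 13.3% of the clients, against the 11.8% of measured genes. Ratios below that of the median gene were found in 8 of 16 assembly factors and 10 of 15 clients, against 50.1% of measured genes. The medians differed by 0.13, assembly minus clients, and the difference was -0.08 when each gene's probe sets were averaged, so its sign depended on how probe sets were combined.

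**Figure D3:**
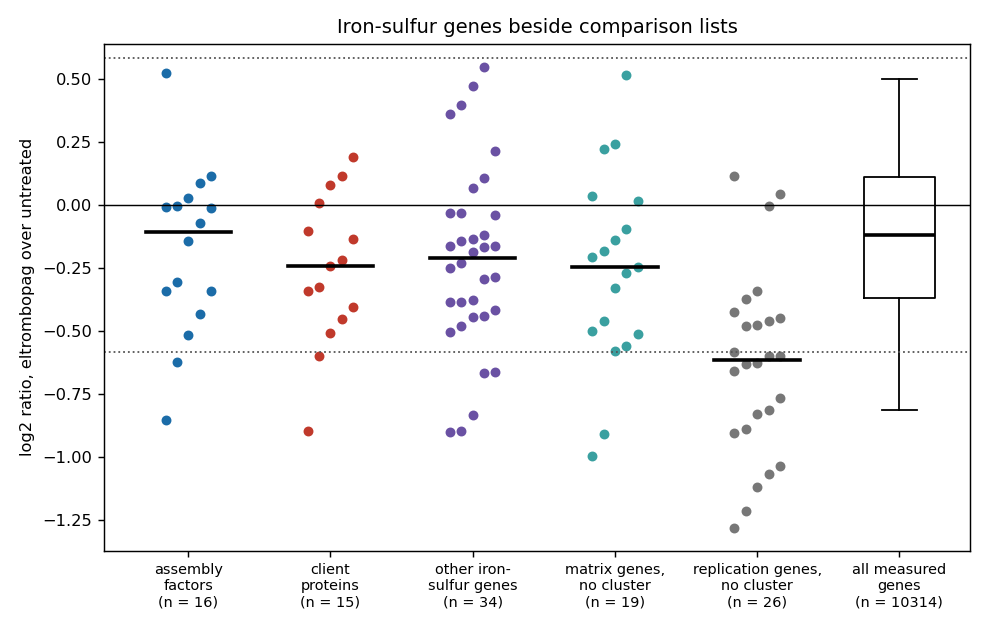
Log2 ratio of eltrombopag over untreated for single genes (points) with list medians (bars), beside all measured genes (box from the lower to the upper quartile, whiskers at the 5th and 95th percentiles); dotted lines mark 1.5-fold. Assembly factors, clients, other iron-sulfur genes and matrix genes have medians between -0.24 and -0.11, and replication genes lie lower, at -0.61.

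Other genes of the pathway showed a like spread. Of 49 further iron-sulfur genes, 39 were found and 34 were measured; 5 of these were at least 1.5-fold lower and 0 reached 1.5-fold on the higher side, 14.7% lower against 11.8% of measured genes, and the median was -0.21. The 5 were CISD3, a mitochondrial matrix cluster protein, at -0.90 (-0.38 in its other probe set), NUBPL, which takes part in complex I assembly, at -0.90, FDX2 at -0.84, POLA1, the catalytic subunit of polymerase alpha, at -0.67, and FECH, the last enzyme of heme synthesis, at -0.66 (-0.45 and 0.19 in others). On the higher side, named after their values were seen, LIPT1, a lipoyltransferase, had a ratio of 0.55, and SLC25A37, mitoferrin, which brings iron into mitochondria, had 0.40. XDH, also of this list, lay between them at 0.47, a bound, with 78.9 in the eltrombopag sample and 54.0, below the floor, untreated. The 7 probe sets of SLC25A37 above the floor had ratios from 0.02 to 0.52.

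Comparison lists without a known cluster gave a scale for both compartments. The 12 mitochondrial assembly factors had a median of -0.22, and 19 mitochondrial matrix enzymes and chaperones had one of -0.24, with 2 genes in each at least 1.5-fold lower; in the matrix list these were HSPE1 at -0.99 and CLPP at -0.91. The 8 DNA replication and repair clients had a median of -0.28, with 1 of 8 at least 1.5-fold lower. These shares, 16.7% of the mitochondrial assembly factors and 12.5% of the DNA clients, lie near the 11.8% of measured genes. The 26 replication genes without a cluster had a median of -0.61, with 15 of 26 at least 1.5-fold lower, MCM2 to MCM6, PCNA, RFC2, RFC4, GINS1, GINS2, GINS3, FEN1, RPA3, POLD3 and PRIM1. The difference between the DNA clients and the replication genes was not tested, since genes are not replicates of a condition. These lists are also unlike in function: the clients include repair enzymes such as NTHL1 and MUTYH, while the other list was chosen as replication genes. Without BRIP1, the other 7 DNA clients had a median of -0.24 and 0 of 7 past 1.5-fold.

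Scaling changed which members passed the threshold. After median centring, quantile normalization or lowess of the arrays, BOLA3 and DPYD were no longer 1.5-fold lower and IBA57 became at least 1.5-fold higher, while FDX1 and BRIP1 stayed beyond 1.5-fold. FDX1 ran from -0.88 to -0.71 and BRIP1 from -0.90 to -0.75 over 9 alternatives each. Not all of these could change the values. The signals of both genes cleared every floor, so the other floors, no filter and the both-samples limit returned the deposited ratios. Genes close to the median changed sign with the scaling: NFS1, LYRM4, CIAO1, CIAPIN1, MMS19, MUTYH and CDKAL1 were below 0 as deposited and above 0 after median centring.

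**Figure D4:**
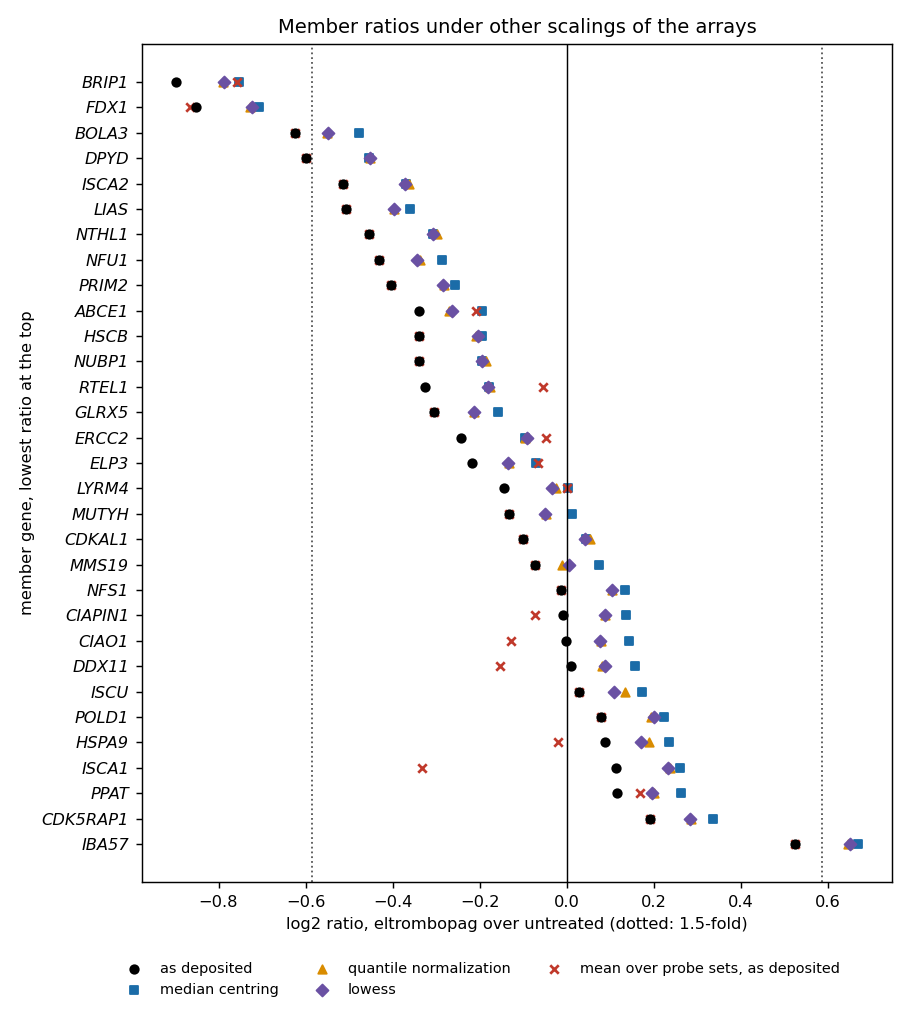
Log2 ratio of eltrombopag over untreated for the 31 members, ordered from lowest to highest as deposited, under the deposited scale, 3 other scalings of the arrays and the mean over probe sets; dotted lines mark 1.5-fold. The other scalings move members to the right, median centring by the same amount, quantile normalization and lowess by amounts that differ between genes. Under these scalings FDX1 and BRIP1 stay left of the lower limit and IBA57 crosses the upper one. The mean over probe sets moves ISCA1 to -0.33.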

How the data were processed

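RNA of 2 samples, 1 per group, was measured on expression arrays. The authors deposited signal intensities, linear and not log values, 1 for each probe set and sample. The submitters' processing notes name MAS5, with no version; the scaling target and any detection call are not given here. Trimmed means, leaving out the top and bottom 2%, were 164.9 (eltrombopag) and 176.6 (untreated), so the arrays do not share 1 average, and values were taken as deposited. Of 54613 probe sets, 41091 name 1 gene; 1801 name several and 11721 are not listed, and these were left unnamed. Symbols were checked through RefSeq identifiers (GRCh38.p14), which changed 0 of them.

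A floor at the 60th percentile was applied, log2 ratios were taken, and the probe set with the highest mean log2 signal stood for its gene (Python 3.11.15, pandas 2.3.3, numpy 2.4.6). Alternatives were median centring, quantile normalization, lowess (statsmodels 0.14.6, span 0.3), a lower floor (50th percentile), a higher one (75th) or no filter, a mean over each gene's probe sets, suffixes _x_at and _s_at left out, genes above the floor in both samples, and a 2-fold threshold. With 1 array per group no test was made, and the number of arrays limits the precision.

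Every member was named by rule. Of the comparison lists, genes at least 1.5-fold changed were named, and any other is marked. The members and lists were chosen with earlier results of these data known; the split of assembly factors into 4 roles was made after values were seen. Promoters came from RefSeq, and 31 of the 33 listed genes had an entry.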

Additional observations from a re-analysis of the deposited data

How the results depend on the processing

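The count of assembly factors at least 1.5-fold lower was 2 as deposited and 1 after median centring, quantile normalization or lowess and without suffixes _x_at and _s_at, and 0 at a 2-fold threshold. The count at least 1.5-fold higher was 0 as deposited and 1 (IBA57) after each of the 3 scalings. The count of clients at least 1.5-fold lower was 2 as deposited, 1 after each of the 3 scalings, 1 under the higher floor (75th percentile) and 0 at 2-fold. Of all measured genes, 1215 were at least 1.5-fold lower and 360 higher as deposited; these were 708 and 675 after median centring, 777 and 593 after quantile normalization, 709 and 238 under the higher floor, 3340 and 2486 with no filter, and 234 and 67 at 2-fold, and 555 were higher after lowess. The assembly median ran from -0.22 (mean over probe sets) to 0.04 (median centring). The client median ran from -0.32 (without suffixes _x_at and _s_at) to -0.10 (median centring). Without these suffixes only 9 assembly factors and 10 clients had a value, and under the higher floor 14 and 12. The medians, counts and differences of these settings therefore cover fewer genes. BOLA3, whose only probe set has the suffix _s_at, dropped out of the first, so the lower count there is not a changed ratio. The assembly minus client difference stayed at 0.13 after median centring, which moves both lists alike. It turned to -0.08 with the mean over probe sets. Under the others it lay between 0.10 (higher floor) and 0.19 (without suffixes _x_at and _s_at). Of 262 member values under the alternatives, 258 moved by less than the probe set SD of 0.26. Much of this was fixed in advance. Every member lay above the floor in both samples, so the lower floor, no filter and the both-samples limit returned its deposited ratio. Median centring moved every member by the same amount, less than that SD. A mean over probe sets cannot move a gene with 1 measured probe set. The count therefore says little about robustness. The values that moved further were DPYD (-0.16 under the higher floor), ISCA1 (-0.33) and RTEL1 (-0.05) with the mean over probe sets, and LYRM4 (0.14 without suffixes _x_at and _s_at). The other scalings remove the offset between the arrays by construction. The DPYD value under the higher floor is a bound, since its eltrombopag signal was raised to that floor. The ISCA1 and RTEL1 values are means over probe sets with ratios of both signs. The LYRM4 value is that of the probe set left once the brightest, with suffix _s_at, was dropped. No paired analysis was possible because each group holds 1 sample, and none could be left out. Members near the floor, such as ISCA2, NTHL1, RTEL1 and NUBP1, have the least signal over background, and no alternative gives an error between cultures.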
